A study of Mus musculus with 12 samples.

Results

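The genes described here are 8 members of the FOXP, FOXO and FOXK families: Foxp1, Foxp2, Foxp4, Foxo1, Foxo3, Foxo6, Foxk1 and Foxk2. Their accessible regions were the ATAC-seq peaks centred inside a gene or at most 10 kb outside it, which came to 44 of the 34118 peaks of the wild-type (WT) list and 38 of the 27187 peaks of the Runx1 knockout (KO) list. ATAC-seq marks open chromatin by the cuts of the Tn5 transposase. The cells were C2C12, an established mouse myoblast line, either WT or Runx1KO, collected near confluency at day 0, in growth medium that held 20% fetal bovine serum. Runx1 encodes a RUNX family transcription factor. Each genotype had 3 samples in this medium, but every peak name carries the label of the replicate 1 library, so each genotype has 1 set of values and no replicate error. Whether the KO cells are a single clone is not given in the labels. The families were chosen by the deposited peak classes (shared, WT specific, KO specific), seen in earlier results of these lists, so all class counts below are a description with no test.

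All 8 genes encode transcription factors with a forkhead DNA-binding domain, a winged-helix fold. FOXO proteins are held out of the nucleus when insulin and growth factors activate AKT, and in muscle they drive genes of protein breakdown and atrophy when that signal falls. FOXP proteins are mostly repressors that pair through a leucine zipper, and FOXK proteins carry a forkhead-associated domain and repress autophagy genes in fed myoblasts. The fold of a peak is read here as its height over the local background, and −log10 q as its evidence against that background. Both are the authors' values. Both move with sequencing depth, which is unknown, so WT and KO values are set side by side and no change between the lists is read from them.

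The start sites were described first. RefSeq start windows (GRCm38.p6, 250 bases before to 50 bases after a start) were found for 5 of the 8 genes and numbered 7, of which 3 belong to Foxp1. A WT peak touched 5 of the 7 windows and a KO peak also touched 5 of 7. Over all 32817 windows of the same length, 29.4% were touched by a WT peak and 26.8% by a KO peak. The 250 bases before 4 of these starts are printed because they show a start open in both lists, a start with a KO peak but no WT peak in the window, a start with no peak, and a start with a WT peak only. Capitals mark the bases under the WT peak, except for the downstream start of Foxp1, where they mark the bases under the KO peak.
Foxp1 upstream start, chr6:99520994-99521243, minus strand: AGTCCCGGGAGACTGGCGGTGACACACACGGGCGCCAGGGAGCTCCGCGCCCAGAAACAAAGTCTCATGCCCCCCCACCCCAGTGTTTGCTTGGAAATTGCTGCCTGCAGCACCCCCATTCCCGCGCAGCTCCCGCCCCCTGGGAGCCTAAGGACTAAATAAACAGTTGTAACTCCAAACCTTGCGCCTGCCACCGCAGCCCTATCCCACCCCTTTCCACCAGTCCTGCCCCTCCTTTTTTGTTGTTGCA
Foxp1 middle start, chr6:99266516-99266765, minus strand: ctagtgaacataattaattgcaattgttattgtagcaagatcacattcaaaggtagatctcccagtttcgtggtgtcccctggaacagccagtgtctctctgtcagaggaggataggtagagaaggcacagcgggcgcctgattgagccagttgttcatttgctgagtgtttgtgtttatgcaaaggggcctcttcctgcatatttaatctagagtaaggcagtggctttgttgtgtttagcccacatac
Foxp1 downstream start, chr6:99028299-99028548, minus strand: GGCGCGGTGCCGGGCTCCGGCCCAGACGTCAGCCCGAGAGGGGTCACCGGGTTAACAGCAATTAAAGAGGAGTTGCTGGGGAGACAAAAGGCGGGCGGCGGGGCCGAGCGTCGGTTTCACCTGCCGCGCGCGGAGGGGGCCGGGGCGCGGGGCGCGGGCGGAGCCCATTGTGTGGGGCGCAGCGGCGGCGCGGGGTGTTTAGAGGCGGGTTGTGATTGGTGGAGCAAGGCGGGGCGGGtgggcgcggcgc
Foxo1 start, chr3:52268087-52268336, plus strand: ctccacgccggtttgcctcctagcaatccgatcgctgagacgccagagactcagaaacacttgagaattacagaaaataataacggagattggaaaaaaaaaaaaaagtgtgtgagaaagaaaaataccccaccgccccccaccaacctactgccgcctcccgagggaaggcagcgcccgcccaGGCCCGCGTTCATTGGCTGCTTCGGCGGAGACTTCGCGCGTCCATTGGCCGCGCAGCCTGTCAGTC

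At the upstream start of Foxp1 all 250 bases lay under the WT peak and 249 lay under the KO peak. At the middle start the nearest WT peak was 6.398 kb away and the nearest KO peak 6.50 kb away. At the downstream start 238 of the 250 bases lay under a KO peak and none under a WT peak, although the WT list held a peak further upstream. At the Foxo1 start the last 66 bases lay under a WT peak, while the nearest KO peak was 69.7 kb away. The middle Foxp1 window was also the poorest in CpG, with 5 CpG in 300 bases and a GC content of 48.7%. The downstream Foxp1 window held 44 CpG (GC 75.3%), the upstream Foxp1 window 13 (60.3%) and the Foxo1 window 31 (61.3%). The windows of Foxo3, Foxp4 and Foxk2 held 35, 33 and 59 CpG. The median over all windows was 7 CpG and a GC content of 52.7%, so 6 of the 7 member windows lay above both medians.

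**Figure D1:**
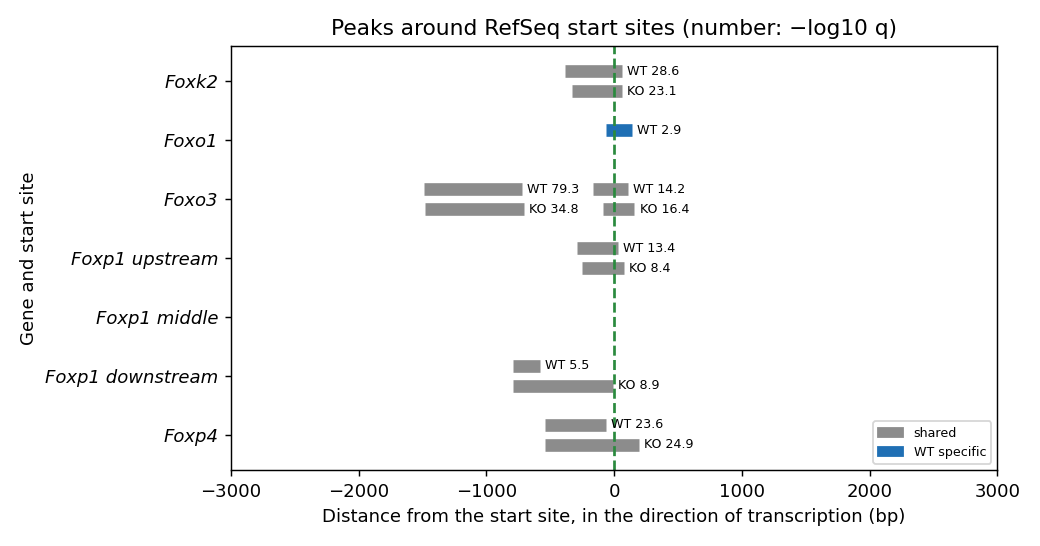
Peaks within 3 kb of the 7 RefSeq start sites, drawn as bars by distance from the start in bp along the direction of transcription, with the WT peak above the KO peak of each start and its −log10 q printed beside it. Both lists have a peak over the starts of Foxk2, Foxo3 and the upstream start of Foxp1, the middle start of Foxp1 has none, and the Foxo1 start has a WT peak only.

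Both strands of the 7 windows were searched for the letters of 5 motifs: TGTGGT (RUNX), TGTTTAC (forkhead), CCGGAA (ETS), TGANTCA (AP-1) and CAGCTG (E-box). The only match was 1 E-box, in the Foxp4 window, so no matches overlapped, and the other 6 windows held none of the 5. Among all 32817 windows, 16.8% held the RUNX letters, 3.65% the forkhead letters, 14.9% the ETS letters, 7.81% the AP-1 letters and 16.3% the E-box letters.

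Over the 8 genes, 12 of the 44 WT peaks were WT specific (27.3%, exact 95% interval 14.96 to 42.8), and 27.3% of all WT peaks were WT specific. In the KO list 5 of the 38 peaks were KO specific (13.2%, exact interval 4.41 to 28.1), where 9.59% of all KO peaks were. Both intervals cover counting error only and take peaks as the units. Since the classes entered the choice of the genes, nothing is read from how these shares compare with the whole lists. With the limit of 10 kb, all 5 KO specific peaks lay in Foxp1. The 12 WT specific peaks were spread over Foxp1 with 8, Foxo3 with 2, and Foxo1 and Foxk1 with 1 each. Among the 14224 protein-coding genes with a peak, 38.4% had a WT specific peak and 11.3% had a KO specific peak. Of the 7 members with a peak, 4 and 1 did.

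**Figure D2:**
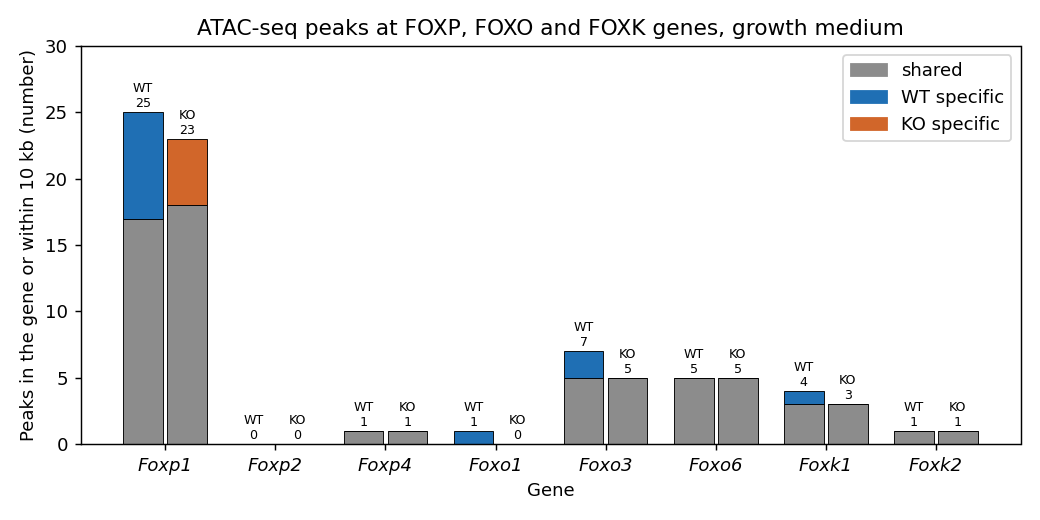
Number of peaks assigned to each gene, with the WT list at the left and the KO list at the right of each pair of bars, and shared, WT specific and KO specific peaks stacked. Foxp1 holds 25 WT and 23 KO peaks, more than the other 7 genes together, and Foxp2 holds none.

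Foxp1, on chromosome 6 from 98925342 to 99522746, encodes a forkhead repressor with roles in heart, lung, lymphoid and neural development. It held 25 WT peaks, 17 shared and 8 WT specific, and 23 KO peaks, 18 shared and 5 KO specific. Without flanks, Foxp1 makes up 39.8% of the summed length of the 8 genes, to which Foxp2, with no peak, adds 541 kb. Counted with the flanks of 10 kb, Foxp1 had 56.8% of their WT peaks and 60.5% of their KO peaks. Of 21631 protein-coding genes, 1 had more WT peaks and 1 had more KO peaks. It was Pakap in both lists, with 28 and 25, a gene looked up after the counts were seen. Gene length bears on such counts. The 254 protein-coding genes between 400 and 800 kb had a median of 2 peaks in each list, and 61 of them (24.02%) had none. Of these 254 genes, 1 had more WT peaks than Foxp1 and 1 had more KO peaks. With its flanks, Foxp1 had 4.05 WT peaks per 100 kb, and the median of protein-coding genes of any length with a peak was 3.73.

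The strongest WT peak of Foxp1 lay inside the gene at chr6:99485169-99485686, 35.6 kb downstream of the upstream start, with a fold of 14.97 and a −log10 q of 54.9. Its KO partner at chr6:99485129-99485845 had a fold of 12.5 and a −log10 q of 42.5. The strongest KO peak lay at chr6:99446662-99447611, with a −log10 q of 44.1 and a fold of 12.03, and was 950 bp wide. The WT peak there was 476 bp wide, with a −log10 q of 42.0 and a fold of 13.3. A further shared site at chr6:99327389-99328163 had a −log10 q of 47.1 (WT) and 42.4 (KO). These 3 sites stood high in both lists, at percentiles from 87.9 to 93.8 of the WT list and from 90.004 to 91.03 of the KO list.

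Some other shared sites of Foxp1 held unlike places in the lists, and those named here were picked after the values were seen. The site at chr6:99199270-99199605 had a −log10 q of 42.4 and a fold of 15.8 in the WT list, and 19.7 and 9.91 in the KO list. In order of −log10 q it was number 5 of the 44 WT peaks at the 8 genes, and its KO partner was number 17 of 38. The site at chr6:99479289-99479716 went the other way, with a −log10 q of 12.9 and a fold of 8.44 in the WT list, and 30.5 and 12.3 in the KO list. It was number 26 among the WT peaks and its partner was number 9 among the KO peaks. With 1 library per genotype the spread of such places between replicates is unknown.

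At the upstream start the WT peak at chr6:99520967-99521282 had a −log10 q of 13.4 and a fold of 7.40, and the KO peak a −log10 q of 8.45 and a fold of 5.39. They were number 25 of the 44 WT peaks and number 33 of the 38 KO peaks. At the downstream start the WT peak ran from 793 to 582 bp upstream of the start, with a −log10 q of 5.53 and a fold of 4.99. The KO peak ran from 793 to 13 bp upstream, with a −log10 q of 8.92 and a fold of 6.06. The outer edges were the same base, and the KO interval was 781 bp wide where the WT interval was 212 bp. The summits of this pair were 597 bp apart, the farthest of the 31 pairs at the 8 genes. The pair is classed as shared because the intervals overlap.

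The 5 KO specific peaks of Foxp1 were weak to middling in their list. The strongest, at chr6:98954465-98954817, had a −log10 q of 15.2 and a fold of 6.24, at percentile 42.1. The next, at chr6:98955827-98956115, had a −log10 q of 11.3 and a fold of 5.40. The remaining KO specific peaks lay at chr6:99249663-99249883, chr6:99341085-99341249 and chr6:99443490-99443636. Their −log10 q was 7.41, 6.58 and 5.34, and their widths were 221, 165 and 147 bp. They lay 9945, 12922 and 3177 bp from the nearest WT peak, so no WT interval was close to these 3.

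The 8 WT specific peaks of Foxp1 had a −log10 q from 3.97 to 10.5 and a width from 188 to 405 bp. The strongest by −log10 q (10.5, fold 5.66), at chr6:99485869-99486272, began 24 bp beyond the edge of the KO peak that pairs with the strongest WT site of the gene. Its class thus rests on where that KO interval ends. The next, at chr6:98950000-98950187, had a −log10 q of 10.2 and a fold of 6.79 and lay 4278 bp from the nearest KO peak. The peaks at chr6:99175476-99175694 and chr6:99296073-99296402 both had a −log10 q of 7.99, and lay 14854 and 30987 bp from a KO peak. Those at chr6:99359415-99359638, chr6:99143463-99143867, chr6:98956453-98956674 and chr6:99368273-99368464 had 7.59, 5.41, 4.99 and 3.97.

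Specific peaks of both genotypes lay side by side toward the far end of Foxp1, from 561 to 571 kb downstream of the upstream start. In the order of the chromosome the stretch held a WT specific peak, a pair of KO specific peaks, a WT specific peak and a shared site. The KO specific peak at chr6:98955827-98956115 and the WT specific peak at chr6:98956453-98956674 were 338 bp apart. The shared site at chr6:98959402-98959902 had a −log10 q of 16.7 (WT) and 22.6 (KO). So apart from the shared site, both lists had calls in this stretch at neighbouring but not overlapping intervals.

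**Figure D3:**
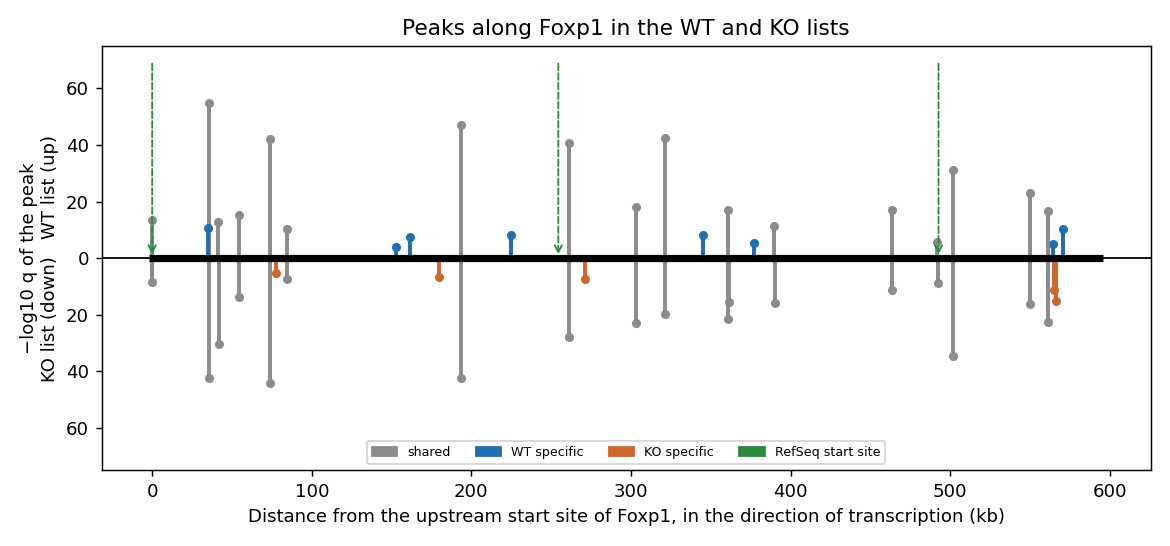
Every peak of Foxp1 by distance in kb from the most upstream of its 3 start windows (arrows), with −log10 q of WT peaks drawn upward and of KO peaks downward. The tall shared sites pair up between the lists, and the WT specific and KO specific peaks are short, with specific peaks of both genotypes close together near 565 kb.

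Gaps in the numbering of the peaks show that some calls had been taken out before deposit. Between the KO peaks that flank them, the KO numbering had such a gap for 10 of the 12 WT specific peaks at the 8 genes. The WT numbering had one for all 5 KO specific peaks. Over the whole lists the shares were 86.9% of WT specific and 87.3% of KO specific peaks. The flanking peaks can be far apart, so where the removed calls lay cannot be read from the lists, and their part in the classes was not tested.

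Foxp4, a close relative of Foxp1 that is expressed in lung and gut epithelium, lies on chromosome 17 from 47867133 to 47924632. It had 1 peak in each list, at its start. The WT peak at chr17:47924694-47925176 had a −log10 q of 23.6 and a fold of 10.8, and the KO peak at chr17:47924441-47925174 had 24.9 and 10.01. The WT interval stopped 62 bp upstream of the start and the KO interval reached 191 bp beyond it, while the summits were 5 bp apart. No peak of either list lay in the rest of the gene.

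Foxp2, known for its role in speech and motor circuits of the brain, lies on chromosome 6 from 14901349 to 15441977 and had no peak in either list. At 541 kb it is nearly as long as Foxp1. The nearest peak lay 279 kb beyond it in both lists, at chr6:15720580-15721377 in the WT list. Of the genes of 400 to 800 kb, 24.02% likewise had no peak.

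The FOXO genes differed in how many peaks they held. Foxo3, on chromosome 10 from 42181845 to 42276695, is a main driver of ubiquitin ligase and autophagy genes in wasting muscle. It had 7 WT peaks, 5 shared and 2 WT specific, and 5 KO peaks, all shared. Just upstream of its start, from 1487 to 725 bp before it, lay the strongest WT peak of all 8 genes. This peak at chr10:42277420-42278182 had a −log10 q of 79.3 and a fold of 18.7, at percentile 98.3 of the WT list. The KO peak covered nearly the same bases, 773 bp against 763 bp, with a −log10 q of 34.8 and a fold of 10.1, at percentile 83.6 of the KO list. It was number 1 of the WT peaks and number 5 of the KO peaks at the 8 genes.

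Over the Foxo3 start itself both lists held a second peak with the same summit base, with a −log10 q of 14.2 (WT) and 16.4 (KO). The peak beyond the far end of the gene, at chr10:42177912-42178550, had 28.6 and 33.7. Inside the gene, the site at chr10:42231226-42231495 had a −log10 q of 17.1 (WT) and 10.1 (KO), and the site at chr10:42237610-42237877 had 6.25 and 10.1. The WT specific peaks of Foxo3 lay at chr10:42219205-42219388 (−log10 q 7.84, fold 6.49) and chr10:42261822-42261998 (−log10 q 7.29, fold 6.34). The latter overlapped the long noncoding RNA gene Gm38485. They lay 11861 and 14538 bp from the nearest KO peak. Thus the start of Foxo3 was open in both lists, and the peaks without a partner were internal ones. By −log10 q they ranked below all its shared WT peaks but the one at chr10:42237610-42237877, which was its weakest WT peak.

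Foxo1, on chromosome 3 from 52268337 to 52350109, acts in myoblast differentiation and fusion and, like Foxo3, switches on atrophy genes. Its only peak was the WT specific one over the start, at chr3:52268271-52268479. It was 209 bp wide, with a −log10 q of 2.87 and a fold of 4.03. It was the weakest of the 44 WT peaks and stood at percentile 1.17 of the WT list, whose lowest −log10 q was 1.31. The KO list had no peak within 10 kb. Between the flanking KO peaks, 69.7 kb before the start and 51.03 kb beyond the far end, 1 KO call number was missing, at a place the list does not give. The presence of a peak at Foxo1 in 1 list and its absence in the other is thus a difference close to the lower end of what the lists hold.

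Foxo6, which among FOXO proteins shuttles least between nucleus and cytoplasm, lies on chromosome 4 from 120267078 to 120287261. It had 5 peaks in each list, all shared, 4 of them inside its 20.2 kb and 1 just outside. Counted over the gene and its flanks of 10 kb, its 12.4 peaks per 100 kb were the most of the 8 genes in both lists. The strongest lay 0.467 kb beyond the end of the gene at the higher coordinate, at chr4:120287728-120288149, with a −log10 q of 38.9 (WT) and 33.5 (KO) and summits 1 bp apart. The site at chr4:120283210-120283495 had 32.7 and 21.2. The site at chr4:120270436-120270841, which overlapped the noncoding gene Gm52678, had 19.9 and 15.0016. At chr4:120272031-120272501 the WT peak had a −log10 q of 7.26 and the KO peak 17.6, and at chr4:120277158-120277824 they had 10.5 and 4.09. Foxo6 was the member with several peaks and no specific one within 10 kb. With a limit of 50 kb, or with peaks given to the nearest gene end, it had 2 WT specific peaks.

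Foxk1, on chromosome 5 from 142401497 to 142462015, is a FOXK repressor first described in muscle progenitor cells. It had 4 WT peaks, 3 shared and 1 WT specific, and 3 KO peaks, all shared. The site at chr5:142440311-142440970, inside the gene, held the strongest KO peak of all 8 genes, with a −log10 q of 61.9 and a fold of 15.6. The WT peak there had 51.5 and 14.5 and was number 3 among the WT peaks. The summits were 2 bp apart, although the WT interval was 660 bp wide and the KO interval 339 bp. The site at chr5:142426549-142426733 had a −log10 q of 19.4 (WT) and 15.4 (KO). The third shared site, at chr5:142463720-142464227, had 24.4 and 15.0028 and lay 1.96 kb outside Foxk1 in the neighbouring gene Ap5z1. The WT specific peak at chr5:142431994-142432405 had a −log10 q of 8.46 and a fold of 6.67, and 1 KO call number was missing beside it. The end of Foxk1 at the lower coordinate had no peak within 24.975 kb in either list.

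Foxk2, on chromosome 11 from 121259987 to 121309900, had 1 peak in each list, over its start. The WT peak ran from 386 bp before to 59 bp after the start, with a −log10 q of 28.6 and a fold of 12.6. The KO peak ended at the same base, with 23.1 and 10.3. Like Foxp4, the gene had its only listed peak at or near the start, and it was shared.

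**Figure D4:**
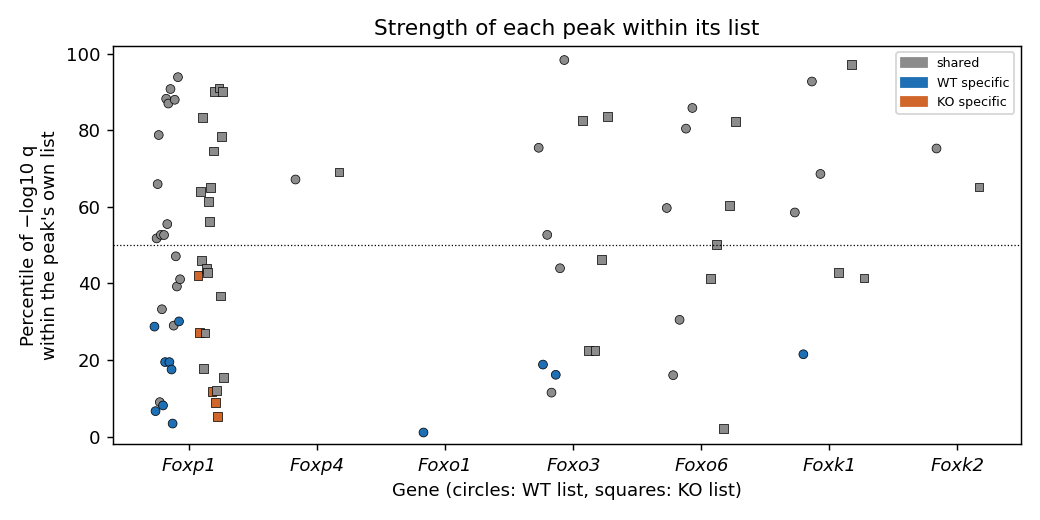
Percentile of −log10 q of each peak within its own list, by gene, with circles for the WT list and squares for the KO list; the dotted line is the middle of a list. All WT specific and KO specific peaks lie below the middle, and the Foxo1 peak stands at percentile 1.17.

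The specific peaks of the 8 genes were weak and narrow, as specific peaks of the whole lists were. All 12 WT specific peaks were among the 22 WT peaks under the median −log10 q of the list (16.1), and none was among the 22 at or above it. In the whole WT list 48.5% of the peaks under the median and 6.17% of those at or above it were WT specific. All 5 KO specific peaks were among the 20 KO peaks under the KO median (17.6), and none was among the 18 at or above it. In the whole KO list these shares were 17.7% and 1.45%. The WT specific peaks at the 8 genes had a median width of 220.5 bp and the shared WT peaks 442.5 bp. In the KO list these medians were 221 and 429 bp. Both contrasts were also present in the whole lists, with 250 against 424 bp and 258 against 441 bp. All 17 specific peaks had their centre inside a gene body, as had 37 of all 44 WT and 32 of all 38 KO peaks at the 8 genes. Of the 17, 1, that of Foxo1, lay within 1 kb of a start or end of its gene. The shares of such places over the whole lists were not computed, so nothing is read from these counts.

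Shared sites overlap between the lists by definition, so nothing is read from their closeness. Of the 32 shared WT peaks, 31 paired with a single KO peak. The exception was a 1319 bp WT interval in Foxp1 at chr6:99159273-99160591, which covered KO peaks at chr6:99159368-99159891 and chr6:99160118-99160622. Its −log10 q was 17.0458 and those of the KO peaks were 15.5 and 21.7. The summits of the 31 pairs were a median of 23 bp apart and 21 pairs (67.7%) were within 50 bp. Over all 24065 such pairs the median was 30 bp and 69.1% were within 50 bp. The KO interval was the wider of the pair in 16 of 31 (51.6%), and in 52.1% of all pairs.

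The limit of 10 kb was not close to most peaks. The farthest peak inside it lay 3.61 kb outside its gene, at Foxo3. The nearest beyond it were WT specific peaks 10.8 kb from Foxo3 (−log10 q 4.15) and 10.9 kb from Foxo6 (−log10 q 20.4). The nearest beyond it in the KO list was a shared peak 15.7 kb from Foxk1 (−log10 q 6.36). The WT specific peak near Foxo6 stood above the WT median of 16.1. The lack of WT specific peaks at or above that median thus holds for the limit of 10 kb.

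The genes with the counts of shared, WT specific and KO specific peaks closest to those of Foxp1 were Tenm3, Aopep and Nav2, by the summed absolute difference of the 3 counts over 1 library of each genotype. Tenm3 had 17 shared and 8 WT specific peaks, as Foxp1 had, and 2 KO specific peaks, a difference of 3. Aopep and Nav2 differed by 7, as did Runx2, which comes after them by name. Among the 4 genes with at least 20 KO peaks, Foxp1 had the highest KO specific share (21.7%) and the median was 8.76%. Of all protein-coding genes, 3 had more KO specific peaks than Foxp1. Erc2, with 11 of 13 KO peaks specific, Mgat4c, with 8 of 9, and Gm7361, with 6 of 6, fell under that limit of 20. These 3 genes were looked up after the counts were seen. Among the 14 genes with at least 20 WT peaks, 5 had a higher WT specific share than the 32.0% of Foxp1.

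The remaining FOXO and FOXP genes are on the X chromosome. Foxo4 had a single WT specific peak at its lower end, at chrX:101254017-101254190, with a −log10 q of 10.4 and a fold of 7.66, and no KO peak. For Foxo1 and Foxo4 the only peak within 10 kb was a WT specific one at an end of the gene. Foxo3 and Foxo6 had shared peaks at or near an end. The share of all genes whose only peak is WT specific was not computed. Foxp3, the regulator of regulatory T cells, had no peak inside the gene. The shared peak assigned to it lay 5.09 kb away, with a −log10 q of 30.1 (WT) and 27.1 (KO). Among 36 other FOX genes, these included, 19 had a peak, 8 had a WT specific and 4 had a KO specific peak. A peak of any class was present at 65.8% of all 21631 protein-coding genes. Of the genes in that share, 38.4% held a WT specific and 11.3% a KO specific peak. At these FOX genes 12 of the 45 WT peaks (26.7%) and 4 of the 37 KO peaks (10.8%) were specific. Foxn3, a checkpoint-linked forkhead gene, had 9 WT peaks, of which 5 were WT specific, and 5 KO peaks, of which 1 was KO specific.

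The pathway around the FOXO proteins was read from 4 lists of genes, for which the whole-list values are 27.3% of WT peaks and 9.59% of KO peaks specific, and 65.8% of protein-coding genes with a peak. All 16 genes of insulin and AKT signalling upstream of FOXO had a peak, and 8 of their 53 WT peaks (15.1%) and 2 of their 46 KO peaks (4.35%) were specific. Of 26 FOXO target genes 24 had a peak, and 8 of 57 WT peaks (14.0%) and none of 46 KO peaks were specific. Of 19 FOXP and FOXK partner genes 17 had a peak, with 10 of 51 WT peaks (19.6%) and none of 40 KO peaks specific. All 14 FOXO cofactor and regulator genes had a peak, with 14 of 41 WT peaks (34.1%) and 3 of 30 KO peaks (10.0%) specific. Of that list, Ppargc1a, a coactivator of mitochondrial genes, had 5 WT specific among 9 WT peaks and 3 KO specific among 7 KO peaks. Mdm2, a ubiquitin ligase of p53 that also acts on FOXO proteins, had 3 WT peaks, all WT specific, and no KO peak. These counts describe the lists of 1 library each and were not tested.

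Facts of the whole lists bear on these values as follows. At Runx1, the targeted gene, the WT list had 19 peaks, 7 of them WT specific, and the KO list had 12, which gives no direct readout of the edited allele. Of 7 myoblast genes 6 had a peak, with 5 of 20 WT peaks and 0 of 15 KO peaks specific. Myod1, Des and Cdh15 had 2 shared peaks each. Ncam1 had 3 WT specific among 9 WT peaks and 6 shared KO peaks, and Itga7 had 1 WT specific among 4 WT peaks and 3 shared KO peaks. Pax7 had 1 WT specific peak, and Myf5 had no peak in either list. Of 4 genes of other cell types, Ptprc, Epcam and Sox10 had no peak, and Pecam1 had 2 WT peaks and 1 KO peak.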

How the data were processed

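ATAC-seq peak lists of 2 genotypes of C2C12 cells in growth medium were used (1 library with values per genotype), out of 12 samples in 4 groups of 3. Samples of day 2 were not analysed here. The 5 deposited lists have no header and the layout of a narrowPeak file. In them the authors give each peak a score, a fold ratio over local background, a −log10 p and a −log10 q, and the offset of its summit. The build is mm10 per the submitters' processing notes. The aligner, the peak caller, the correction for the Tn5 offset and the treatment of duplicates are not given in the sources used here, and each can move the number and the edges of peaks. Gaps in the deposited peak numbers show that calls were removed. Depth is unknown.

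Gene positions and start windows were those of RefSeq for GRCm38.p6, the assembly called mm10. All 8 genes matched by symbol, and 5 had start windows. A peak belonged to a gene when its centre lay in it or within 10 kb, and classes were those of the deposited shared and specific lists, which rest on an overlap of 1 bp. Shares have exact (Clopper-Pearson) 95% intervals. Members and gene lists were chosen with earlier results of these data known. All 8 genes are described, with every KO specific peak, the strongest WT specific peak, the strongest peak of each list and the peak at the start, and every specific peak of Foxp1. Peaks named beyond these were chosen with their values known. Other listed genes are named when they had at least 3 specific peaks or are FOXO or FOXP genes, and all markers of cell types are named. The work was done in Python 3.11.15 with pandas 2.3.3, numpy 2.4.6, scipy 1.17.1 and, for figures, matplotlib 3.10.9. The overlap and counting functions were tested on simulated data with 4 of 4 checks passed. The alternatives are given in the closing section.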

Additional observations from a re-analysis of the deposited data

How the results depend on the processing

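No paired analysis was possible because each genotype has values of 1 library, and for the same reason no replicate could be left out. In all, 10 alternatives were computed. Requiring a −log10 q of at least 10 lowered the WT specific share from 27.3% to 6.45% (14.4% in the whole WT list) and the KO specific share from 13.2% to 6.45% (2 of 31 peaks, 4.49% in the whole KO list). Using only peaks at or above the median of each list lowered the WT and KO specific shares to 0. There 0 of 22 WT and 0 of 18 KO peaks were specific. Both follow from the low strength of the specific peaks within 10 kb. With that median the 8 genes kept 22 WT and 18 KO peaks. Without Foxp1 the KO specific share was 0 of 15 peaks, and the WT specific share 21.1%. Assigning each peak to the nearest gene end gave 60 KO peaks, of which 9 were KO specific (15%, 9.59% in the whole KO list). These were 5 at Foxp1, 2 at Foxo1 and 1 each at Foxo3 and Foxk1. That setting gave 10 WT and 10 KO peaks to Foxo1, of which 2 in each list were specific. A reciprocal overlap of 50% raised the KO specific peaks of Foxp1 from 5 to 10, and the KO specific share to 26.3% (18.4% in the whole KO list). The WT specific share rose to 36.4% with it (35% in the whole WT list). Counting a partner within 500 bp gave a WT specific share of 22.7% and a KO specific share of 10.5%. Counting only peaks inside gene bodies left Foxp4 and Foxk2 with 0 in both lists. The unknown depth limits every difference between the lists.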

Other observations

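The lists of specific peaks have an unlabelled column that repeats the start of some peaks. Of the 12 WT specific peaks at the 8 genes, 1 carried this mark, that of Foxp1 at chr6:99359415-99359638, and none of the 5 KO specific peaks did. In the whole WT specific list 10.7% carried it. The WT specific peak of Foxo4 at chrX:101254017-101254190 was also marked. What the mark stands for is not given in the sources used here.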
